A study of Mus musculus with 12 samples.

Results

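Mir103-1, Mir103-2 and Mir107 are the miRNA hairpins that lie in introns of the pantothenate kinase genes Pank3, Pank2 and Pank1. They were taken by name (listed as Mir103-1_seq, Mir103-2_seq and Mir107_seq), as 3 of the 2030 small RNA features of the table, of which 1123 were miRNA hairpins. Small RNA was sequenced from oocytes picked by hand out of the ovaries of unstimulated mice, in 12 libraries. Of these, 4 came from wild type mice without Khdc3-null ancestors, 4 from Khdc3-null mice, and 4 from genetically wild type mice that had Khdc3-null grandfathers and wild type grandmothers, called descendants here. Khdc3 codes for a protein of the subcortical maternal complex of the oocyte, and the series asks how its loss bears on metabolism over generations. Strain, age, the number of oocytes per library and whether libraries of the same group stem from different animals are not given in the sources used here. The hairpins were singled out with their levels in these libraries known, Mir107 for its difference between the groups. Their levels and differences are therefore a description, and no test of them is given.

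Pantothenate kinases catalyse the first committed step in the making of coenzyme A, the carrier of acyl groups in fatty acid and energy metabolism. In vertebrates their genes host miR-103 and miR-107, which are processed from the intron of the host transcript. In mouse liver and fat these miRNAs are known to lower insulin sensitivity by repressing caveolin-1, and in human cells miR-103 represses Dicer, the enzyme that cuts miRNA precursors. Mature miRNAs find targets mainly through the seed, bases 2 to 8 from the 5′ end. In growing mouse oocytes the activity of miRNAs on their targets is known to be low.

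The mature 3′ arm products are shown first, since their likeness limits how reads can be told apart. Capitals mark the seed, and the sequences are those of RefSeq on GRCm38.p6.
miR-103-3p, from Mir103-1 and from Mir103-2: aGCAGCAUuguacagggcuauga
miR-107-3p, from Mir107: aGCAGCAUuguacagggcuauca

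Counted from 1 at the 5′ end, the mature sequences differ by the substitution G22C, with miR-103-3p first. The first 21 of their 23 bases are identical, so a read that ends before base 22 fits all of the loci. Mir103-1 and Mir103-2 give the same miR-103-3p, letter for letter. Of the 1679 mouse mature miRNAs in the RefSeq table, 2 carry the seed GCAGCAU, and these are miR-103-3p and miR-107-3p.

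The 5′ arm products, shown because they are the part in which the loci differ most among the mature forms, also share a seed.
miR-103-1-5p: gGCUUCUUuacagugcugccuug
miR-103-2-5p: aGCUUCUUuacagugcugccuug
miR-107-5p: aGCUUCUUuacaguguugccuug

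Between miR-103-1-5p and miR-103-2-5p there is the substitution G1A, and between miR-103-2-5p and miR-107-5p the substitution C16U. The table holds a value per hairpin, so the arms cannot be read apart. The whole hairpins follow, with both arms in capitals, to show that most of the differences lie in the loop and the outer stem.
Mir103-1: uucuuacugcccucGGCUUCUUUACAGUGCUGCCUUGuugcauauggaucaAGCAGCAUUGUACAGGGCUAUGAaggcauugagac
Mir103-2: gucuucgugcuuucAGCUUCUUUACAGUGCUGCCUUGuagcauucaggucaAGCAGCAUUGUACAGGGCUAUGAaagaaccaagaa
Mir107: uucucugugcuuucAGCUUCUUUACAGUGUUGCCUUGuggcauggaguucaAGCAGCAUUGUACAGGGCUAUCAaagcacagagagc

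In a global alignment the hairpins of Mir103-1 and Mir103-2 were identical at 80.2% of positions, with a longest shared run of 27 bases. Mir107 was identical to Mir103-1 at 80.5% and to Mir103-2 at 83.9% of positions, with longest shared runs of 24 bases.

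On mm10, with GENCODE M21, Mir103-1 lies on chromosome 11 (35782396 to 35782481, plus strand), in intron 5 of the 6 introns of Pank3. Mir103-2 lies on chromosome 2 (131288052 to 131288137, plus strand), in intron 5 of 6 of the longer annotated coding transcript of Pank2 and in intron 2 of 3 of the other. Mir107 lies on chromosome 19 (34820687 to 34820773, minus strand), in intron 5 of 6 of 2 coding transcripts of Pank1 and in intron 4 of 5 of the last. All of them lie on the strand of the host, and none overlaps an exon of a coding transcript of its host. The distance from the exon upstream was 688 bases for Mir103-1 and 326 bases for Mir107, and it was 454 bases for Mir103-2 in the longer transcript. The levels of the Pank mRNAs were not analysed here, as the features were small RNA loci.

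Mapped reads per library ranged from 2918620 to 7640554, and between 87.8% and 96.3% of them lay on listed features. Levels are in RPM, the reads of a hairpin per 1000000 mapped reads. For a hairpin without reads, 3 reads set the limit that counting error allows, which was 1.03 RPM at the lowest depth. Khdc3-null replicate 1 stood apart, with a median correlation of 0.930 with the other libraries against 0.953 to 0.966 for the rest. In that library Mir122a, the miRNA typical of liver cells, stood at 1524 RPM, against 11.1 to 92.9 RPM in the others. As to the label oocyte, all 6 listed hairpins of the Mir290 cluster, which is active in early embryos, had reads in each group, with a sum of 64.7 to 169.7 RPM. The 10 listed hairpins typical of muscle, liver and neurons had reads too, with a sum of 485 to 1880 RPM. Among them Mir208a, known from heart muscle, stood at 110.2 to 166 RPM over all libraries. The 7 listed hairpins of smooth muscle, stroma and vessels summed to 4220 to 7180 RPM, far above the Mir290 cluster in every library. Features not named as miRNA hairpins, tRNA or rRNA were taken as loci of PIWI-interacting RNAs, which are typical of germ cells. They held 17.7% to 21.0% of the listed reads. The level of Khdc3 was not analysed here, so the genotype labels were not checked against the targeted gene.

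All 3 hairpins had reads in every library and passed the filter on low values, in wild type as in the other groups. Averaged over the 12 libraries, Mir103-1 stood at 191 RPM and was number 137 among the 1123 hairpins by RPM, not corrected for length. Mir103-2 stood at 147 RPM, number 163. Mir107 stood at 52.0 RPM, number 335. The hairpins are 86, 86 and 87 bases long, which makes 2.22, 1.71 and 0.597 RPM per hairpin base. The highest library exceeded the lowest 1.53-fold for Mir103-1, 1.54-fold for Mir103-2 and 5.07-fold for Mir107.

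Mir107 stood higher in the Khdc3-null libraries and in the descendants than in wild type. In wild type its levels were 36.2, 19.9, 28.2 and 24.6 RPM in replicates 1 to 4, or 27.2 ± 6.88 RPM (SD, n = 4). In Khdc3-null oocytes they were 100.7, 79.1, 55.2 and 37.0 RPM, or 68.0 ± 27.8 RPM (SD, n = 4). Every Khdc3-null library lay above every wild type library, but the nearest values, 37.0 RPM in Khdc3-null replicate 4 and 36.2 RPM in wild type replicate 1, were almost level. These values rest on 114 to 250 reads per wild type library and 231 to 383 reads per Khdc3-null library. The ratio of the means was 2.50, and the difference on the log2(RPM + 1) scale was 1.23 (SE 0.32). From the highest difference down, it was number 12 of the 1889 tested features. In this comparison limma called 0 of 1889 features, or 0%, at a Benjamini-Hochberg adjusted p under 0.05. The groups did not overlap, with Khdc3-null higher, in 22 features, or 1.16%, and with Khdc3-null lower in 2.01%, together 3.18%.

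In descendants Mir107 stood at 58.1, 41.2, 89.0 and 54.5 RPM in replicates 1 to 4, or 60.7 ± 20.2 RPM (SD, n = 4), from 304 to 530 reads. All of these lay above the highest wild type library at 36.2 RPM. The ratio of the means was 2.23 and the log2 difference 1.11 (SE 0.32), number 26 of the 1889 tested features. In that comparison limma called 0 features, or 0%, and the groups did not overlap, with descendants higher, in 1.27% of features, and in 2.75% in either direction. Both comparisons use the same wild type libraries, so they are not independent of each other. Between descendants and Khdc3-null the groups overlapped over most of their range, and the log2 difference was -0.12 (SE 0.32). Limma called 0 features, or 0%, in that comparison as well, and 3.02% of features did not overlap, 1.75% with descendants higher and 1.27% with descendants lower.

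**Figure D1:**
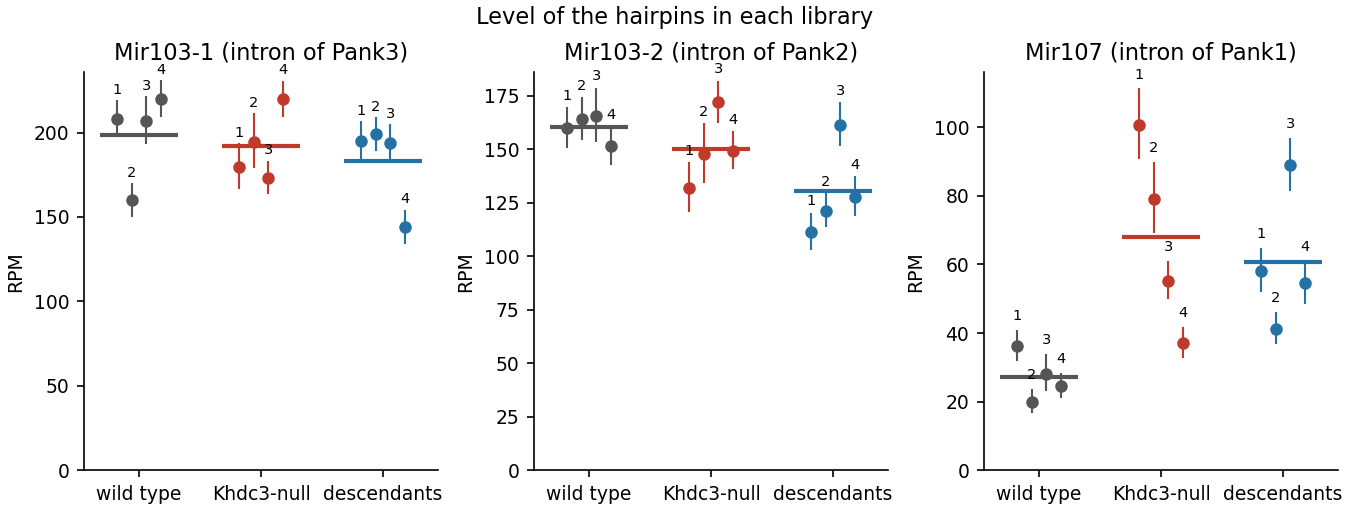
Level of each hairpin in RPM (linear axis from 0) in the 12 libraries, by group. Points are libraries with their replicate number, bars are 95% Poisson counting intervals and lines are group means. Mir107 lies between 19.9 and 36.2 RPM in wild type and between 37.0 and 100.7 RPM in the other groups, while the groups overlap for Mir103-1 and Mir103-2.

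The spread of Mir107 between libraries of a group was larger than reads alone would give. Counting error would leave an SD of 2.16 RPM in wild type, 4.09 RPM in Khdc3-null and 3.18 RPM in descendants, and the SDs found were 3.19, 6.81 and 6.35 times as large. Both Khdc3-null libraries of highest Mir107, replicates 1 and 2, were also the shallowest of all, with 3802126 and 2918620 mapped reads. Wild type replicate 3, the next in depth with 4048534 reads, stood at 28.2 RPM. Without these 3 libraries the log2 difference between Khdc3-null and wild type was 0.77 (SE 0.37), that between descendants and wild type was 1.13 (SE 0.31), and that between descendants and Khdc3-null was 0.36 (SE 0.35). Without Khdc3-null replicate 1 alone the difference between Khdc3-null and wild type was 1.01 (SE 0.31). The part of depth in the result was not tested.

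Mir103-1, in Pank3, showed no such separation. It stood at 208, 159.8, 207 and 219.8 RPM in wild type, or 199 ± 26.5 RPM (SD, n = 4). In Khdc3-null oocytes it stood at 179.6, 195, 173 and 219.8 RPM, or 192 ± 20.7 RPM (SD, n = 4). In descendants it stood at 195, 199, 194 and 144 RPM, or 183 ± 26.0 RPM (SD, n = 4). The ranges of all groups overlapped, with replicate 2 low in wild type and replicate 4 low in descendants. The log2 differences were -0.05 (SE 0.15) for Khdc3-null against wild type, -0.12 (SE 0.15) for descendants against wild type and -0.07 (SE 0.15) for descendants against Khdc3-null. With median-of-ratios scaling, and in other settings, the sign of the first of these changed.

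Mir103-2, in Pank2, was the steadiest hairpin in wild type, at 160.0, 164, 166 and 151.5 RPM, or 160.4 ± 6.39 RPM (SD, n = 4). Its wild type SD was 1.22 times that of counting alone. In Khdc3-null oocytes it stood at 131.8, 148, 172 and 149 RPM, or 150.2 ± 16.5 RPM (SD, n = 4). In descendants it stood at 111, 121, 161 and 128 RPM, or 130.5 ± 21.8 RPM (SD, n = 4). Descendant replicates 1, 2 and 4 lay below all wild type libraries, and replicate 3 lay among them, so the groups overlapped. The log2 differences were -0.10 (SE 0.14), -0.31 (SE 0.14) and -0.21 (SE 0.14) in the same order of comparisons, and the first of these was 0.02 without the libraries under 5000000 mapped reads. In every group the mean levels kept the order Mir103-1, Mir103-2, Mir107. Mir107 lay below both others in each library, whereas Mir103-1 and Mir103-2 overlapped in wild type and in descendants, and in Khdc3-null oocytes the lowest Mir103-1 library (173 RPM) lay just above the highest Mir103-2 library (172 RPM).

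Summed over the 3 hairpins, the level was close between groups. The sum stood at 386 ± 28.4 RPM in wild type, 410.0 ± 9.00 RPM in Khdc3-null and 374 ± 49.7 RPM in descendants (SD, n = 4 each). The ratio of the means was 1.06 for Khdc3-null against wild type and 0.968 for descendants against wild type. Mir107 had a mean 40.8 RPM above wild type in Khdc3-null, where the Mir103 hairpins together had a mean lower by 17.0 RPM, at 342 against 359 RPM. In descendants Mir107 was 33.5 RPM above wild type and the Mir103 hairpins together stood at 313 RPM.

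Among Khdc3-null libraries Mir107 and the sum of the Mir103 hairpins ran in opposite order. Taken alone, Mir103-1 was lowest and Mir103-2 highest in replicate 3, so neither had the order of the sum. Where Mir107 was 100.7, 79.1, 55.2 and 37.0 RPM, in replicates 1 to 4, the Mir103 hairpins together stood at 311, 342, 345 and 369 RPM. The sum of the 3 stayed between 400.4 and 421 RPM, with an SD that was 0.940 times that of counting alone. In descendants this order was not seen. Replicate 3, the highest for Mir107, was the highest for the Mir103 hairpins too, and the sum ranged from 326 to 444 RPM. Over the 12 libraries the Pearson correlation of log2(RPM + 1) was -0.17 between Mir107 and Mir103-1 and -0.32 between Mir107 and Mir103-2, as a description of libraries that differ in group and depth.

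**Figure D2:**
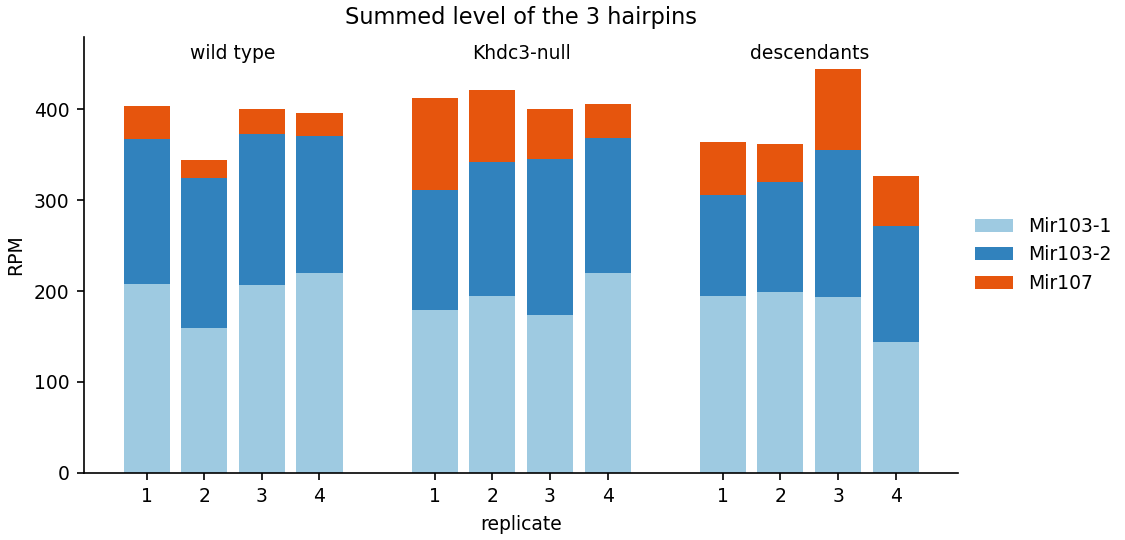
Level in RPM (linear axis from 0) of the 3 hairpins, stacked, in each library by group and replicate. The Khdc3-null sums lie between 400.4 and 421 RPM while their Mir107 parts run from 37.0 to 100.7 RPM.

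The share of Mir107 among the reads of the 3 hairpins does not depend on how libraries are scaled. It was 8.95%, 5.77%, 7.02% and 6.20% in wild type replicates 1 to 4, a mean of 6.99% ± 1.41 (SD, n = 4). In Khdc3-null oocytes it was 24.4%, 18.8%, 13.8% and 9.12%, a mean of 16.5% ± 6.59 (SD, n = 4). In descendants it was 15.9%, 11.4%, 20.0% and 16.7%, a mean of 16.0% ± 3.56 (SD, n = 4). Again the highest wild type and lowest Khdc3-null libraries were almost level, and their exact binomial (Clopper-Pearson) 95% intervals, 7.91% to 10.1% and 8.10% to 10.2%, overlapped. Without the libraries under 5000000 mapped reads the Khdc3-null mean was 11.5%, from replicates 3 and 4 only. The wild type mean was then 6.98%, from replicates 1, 2 and 4.

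Mir103-1 took 55.1% ± 4.18 of the reads on the Mir103 hairpins in wild type, 56.1% ± 4.08 in Khdc3-null and 58.3% ± 5.35 in descendants (SD, n = 4 each). Library shares ran from 49.3% in wild type replicate 2 (exact interval 47.2% to 51.5%) to 63.6% in descendant replicate 1 (61.3% to 65.9%). The division of reads between loci of identical miR-103-3p thus varied between libraries beyond counting error. These intervals cover counting error only, since PCR copies of a read were not told apart.

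**Figure D3:**
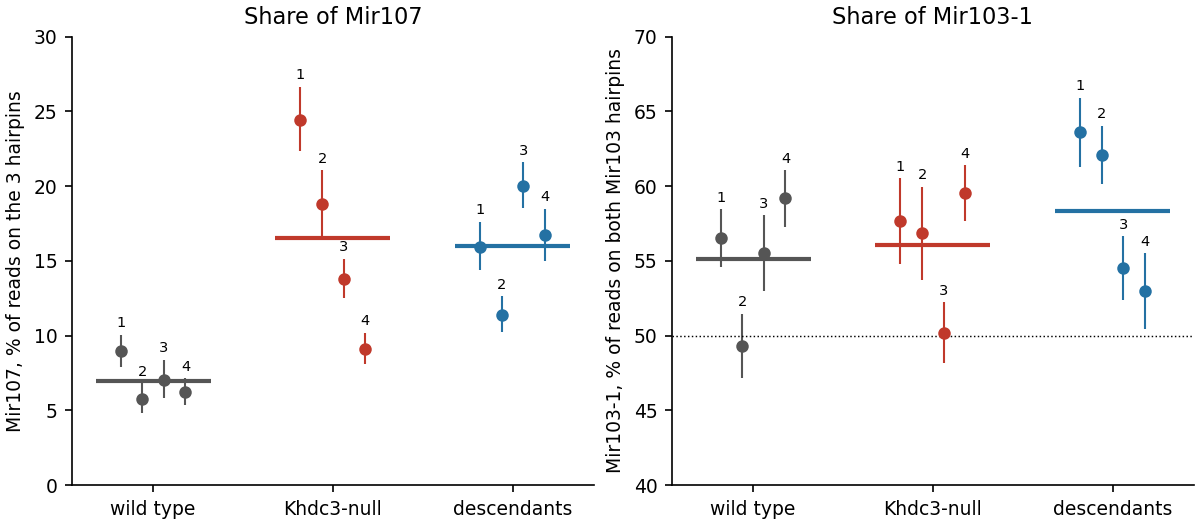
Left, Mir107 in percent of the reads on the 3 hairpins (axis from 0), and right, Mir103-1 in percent of the reads on the Mir103 hairpins (axis from 40 to 70, dotted line at equal division), in each library. Bars are exact 95% binomial intervals and lines group means. Mir107 shares are 5.77% to 8.95% in wild type and 9.12% to 24.4% in the other groups, while Mir103-1 shares overlap between all groups.

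Mir103-1 and Mir103-2 did not vary together, with a Pearson correlation of 0.11 and a Spearman correlation of -0.03 over the 12 libraries. Other loci of shared sequence served as a comparison. In 37 pairs of tested hairpins RefSeq gives an identical mature sequence at 2 loci, and in 21 pairs, Mir103 included, both loci had means over 20 RPM, a limit chosen after the values were seen. The median correlation over these pairs was 0.919, and 17 of them had a higher one than Mir103. Mir16-1 and Mir16-2, for example, stood at 2428 and 2465 RPM with a correlation of 0.996. The higher locus exceeded the lower 1.30-fold for Mir103, against a median of 1.19-fold, and 9 pairs had a larger ratio. Pairs at higher levels have less counting error, and loci that share reads are not independent measurements. The shared sequence can be of either arm, and the arms cannot be read apart. Nor are all pairs independent, as Mirlet7c-2 is paired with Mirlet7c-1 by let-7c-5p and with Mirlet7a-1 by let-7a-1-3p.

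**Figure D4:**
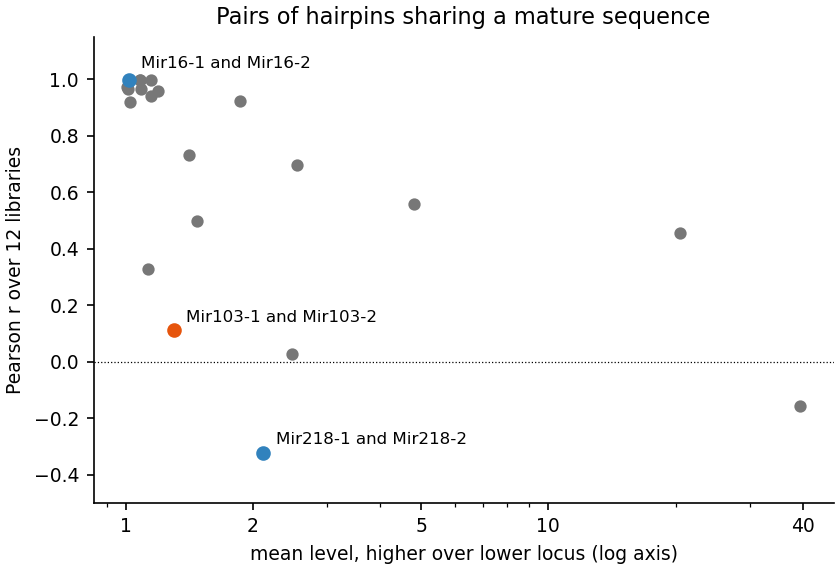
Pairs of hairpins with an identical mature sequence and means over 20 RPM (21 pairs). The x axis is the ratio of mean levels, higher over lower locus (log axis), the y axis the Pearson correlation of log2(RPM + 1) over 12 libraries. Mir103-1 and Mir103-2 lie at a ratio of 1.30 and a correlation of 0.11, while most pairs of near-equal level lie above 0.9.

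The summed erythrocyte hairpins had the order of Mir107 in the 4 Khdc3-null libraries, but not within the other groups. Taken alone, Mir451a had that order in Khdc3-null, and Mir486 and Mir144 did not. Nor did the leukocyte marker Mir142, at 68.9, 81.5, 27.9 and 55.7 RPM in replicates 1 to 4. The 3 listed erythrocyte hairpins (Mir486, Mir451a and Mir144) summed to 318, 188, 156 and 79.1 RPM in Khdc3-null replicates 1 to 4, the order of Mir107 in these libraries. In descendants the sums were 73.7, 148, 232 and 131 RPM, and replicate 3 was highest for both the sum and Mir107. The other descendants did not follow that order. Replicate 1 had the lowest sum at a Mir107 level of 58.1 RPM, and replicate 2, the lowest in Mir107 at 41.2 RPM, had the next highest sum after replicate 3. In wild type the sums were 87.7, 105, 87.4 and 103 RPM, and the order ran nearly in reverse, with replicate 2 lowest in Mir107 and highest in the sum. Khdc3-null replicate 4 had a lower erythrocyte sum than each wild type library, and its Mir107 level of 37.0 RPM was 0.85 RPM above the highest of them.

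Of the erythrocyte hairpins, Mir486 stood at 83.4 ± 2.43 RPM in wild type, 153 ± 71.9 RPM in Khdc3-null and 121 ± 47.6 RPM in descendants (SD, n = 4 each). Mir451a, made in red cells without Dicer, stood at 9.94 ± 8.14, 28.2 ± 29.9 and 21.7 ± 15.0 RPM in the same order. Mir144 had 0 reads in Khdc3-null replicate 4 and descendant replicate 1. Of the 3 hairpins 3 had a higher mean log2 level in Khdc3-null and 2 in descendants than in wild type, and none was called. The median log2 differences were 0.75 and 0.44, against -0.05 and -0.02 over all features.

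The 5 leukocyte hairpins summed to 127 to 139 RPM in wild type, 140.2 to 221 RPM in Khdc3-null and 88.3 to 166 RPM in descendants. By mean log2 level 3 of them stood above wild type in Khdc3-null and 3 in descendants, with median log2 differences of 0.67 and 0.04, and none was called. The most abundant was Mir146, a damper of inflammatory signalling, at 52.1 ± 19.9 RPM in wild type, 80.7 ± 22.3 RPM in Khdc3-null and 51.5 ± 12.3 RPM in descendants (SD, n = 4 each). Mir142, found across blood cell types, stood at 29.8 ± 10.9 RPM in wild type, 58.5 ± 23.0 RPM in Khdc3-null and 48.8 ± 12.8 RPM in descendants (SD, n = 4 each). Mir223, typical of myeloid cells, stood at 14.3 ± 5.87, 24.1 ± 8.83 and 19.5 ± 8.56 RPM in the same order. Mir155, induced in activated immune cells, went the other way, at 16.1 ± 7.65, 10.1 ± 6.68 and 10.5 ± 4.52 RPM, with log2 differences from wild type of -0.76 (SE 0.49) and -0.57 (SE 0.49). The liver marker Mir122a was highest in Khdc3-null replicate 1, the library with the most Mir107. In Khdc3-null replicate 2, however, it was 18.2 RPM, within the wild type range of 11.1 to 33.0 RPM, beside 79.1 RPM of Mir107. In descendants Mir122a stood at 66.1, 14.8, 54.6 and 92.9 RPM in replicates 1 to 4, above that range except in replicate 2. Descendant replicate 2 was the lowest of its group in Mir122a and in Mir107, while replicate 4, the highest in Mir122a, was not the highest in Mir107. Granulosa and follicle hairpins summed to 561 to 763 RPM in wild type, 488 to 684 RPM in Khdc3-null and 508 to 722 RPM in descendants. The 7 stroma and vessel hairpins summed to 5893 to 6964 RPM in wild type, 6234 to 7180 RPM in Khdc3-null and 4220 to 6153 RPM in descendants. All 7 had mean log2 levels below wild type in descendants (median log2 difference -0.32, against -0.02 over all features). The 6 oocyte and early embryo hairpins all had lower mean log2 levels in Khdc3-null than in wild type (median -0.51, against -0.05 over all features). None was called in either list. In such bulk libraries a different number of cells of a type and a different RNA amount per cell cannot be told apart. The part of blood or liver RNA in the Mir107 values was not tested.

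**Figure D5:**
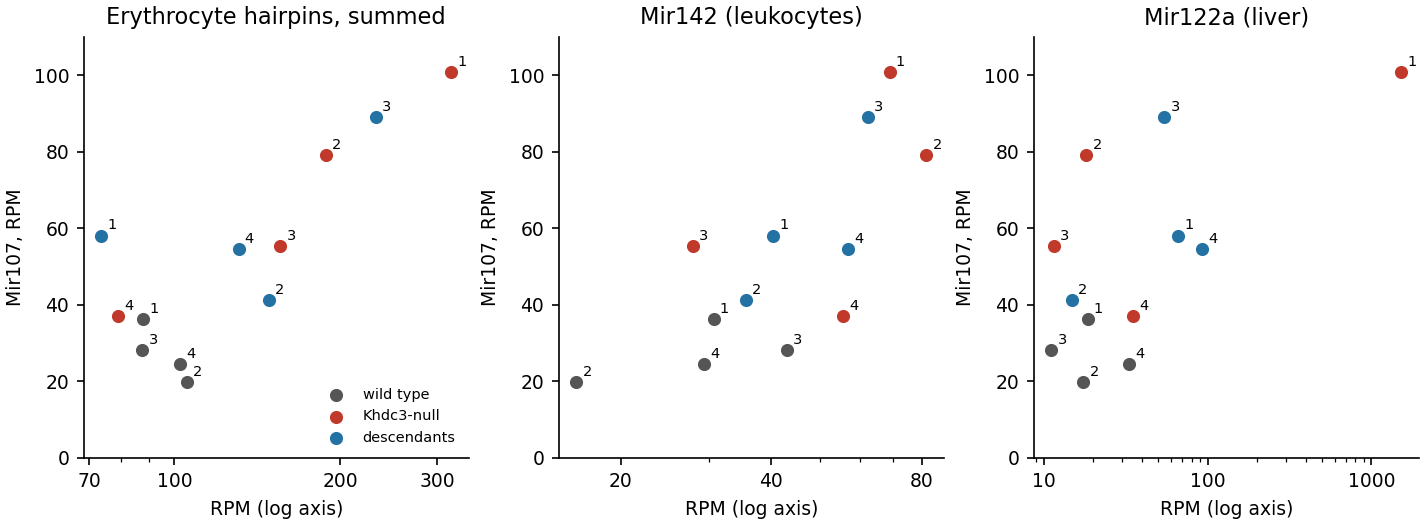
Mir107 in RPM (linear axis from 0) against the summed erythrocyte hairpins, Mir142 and Mir122a in RPM (log axes), with points as libraries numbered by replicate and coloured by group. Khdc3-null replicates 1 and 2 and descendant replicate 3 are high in Mir107 and in the erythrocyte sum (188 to 318 RPM), descendant replicate 1 is not, and Mir122a reaches 1524 RPM in Khdc3-null replicate 1.

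Features whose pattern was most like that of each hairpin were ranked by Pearson correlation of log2(RPM + 1) over the 12 libraries. For Mir107 the closest was Mir6930 (r = 0.84), at 14.7 ± 5.35 RPM in wild type, 29.8 ± 6.67 RPM in Khdc3-null and 19.7 ± 5.11 RPM in descendants (SD, n = 4 each). Mir142 (r = 0.77) and Mir802 (r = 0.76), a miRNA of liver and pancreas that is known to impair insulin action in obese mice, came next. Mir802 stood at 4.25 ± 2.32, 9.80 ± 4.08 and 8.53 ± 4.60 RPM in the same order. For Mir103-1 the closest were the alanine tRNA locus chrX.trna159-AlaAGC (r = 0.83), Mir7118 (r = 0.83) and Mir350 (r = 0.77). For Mir103-2 they were Mir467a-6 (r = 0.87), Mir467a-10 (r = 0.86) and Mir8116 (r = 0.81). None of the features named for Mir103-1 was among those named for Mir103-2. These are the highest of 1886 correlations each, over 12 libraries that share group and depth differences.

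The miR-15/16 family is counted with miR-103 and miR-107 in a wider group, as all hold AGCAGC near the 5′ end. The motif starts at base 1 of miR-103-3p and at base 2 of miR-16-5p, so the seeds are shifted by a base. Capitals mark the motif in these sequences, shown to make the shift visible.
miR-107-3p: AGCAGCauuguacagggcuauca
miR-16-5p: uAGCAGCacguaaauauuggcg
miR-195a-5p: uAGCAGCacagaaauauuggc
miR-322-5p: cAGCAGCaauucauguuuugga

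AGCAGC lay within bases 1 to 8 of 13 of the 1679 mature miRNAs, read on the mature strand only. Of the listed hairpins of the wider group, 10 were in the table outside the Pank genes. They summed to 8968 ± 1012 RPM in wild type, 9364 ± 817 RPM in Khdc3-null and 8316 ± 1550 RPM in descendants (SD, n = 4 each). In Khdc3-null against wild type, 5 of the 10 stood higher and 5 lower, with a median log2 difference of 0.02 against -0.05 over all features, and none was called. In descendants against wild type 3 stood higher and 7 lower, with a median of -0.14 against -0.02. In descendants against Khdc3-null 2 stood higher and 8 lower, with a median of -0.21 against 0.05, and none was called in either. Mir322, the most abundant, stood at 2603 ± 433 RPM in wild type, 2699 ± 495 RPM in Khdc3-null and 2366 ± 321 RPM in descendants. Mir16-2 stood at 2479 ± 386, 2635 ± 323 and 2282 ± 648 RPM in the same order, and Mir16-1, of the same mature sequence, was close to it at 2424 ± 383, 2602 ± 319 and 2258 ± 629 RPM. Mir15b, which acts on the same targets as miR-16, stood at 701 ± 90.2, 751 ± 150.2 and 828 ± 235 RPM. Mir195a, which represses cell cycle genes and was picked out after its values were seen, stood at 447 ± 88.6, 368 ± 25.5 and 260.2 ± 64.3 RPM in the same order. In descendants its values, 194 to 346 RPM, lay below all wild type values, 354 to 552 RPM, where 1.48% of features were without overlap in that direction. Its log2 difference was -0.79 (SE 0.17). Mir497b, also picked out after its values were seen, went the other way, with a log2 difference of 0.78 (SE 0.40). It stood at 55.0 ± 19.0, 49.9 ± 7.66 and 106 ± 63.0 RPM in the same order, and its wild type and descendant ranges overlapped.

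In a list of 24 miRNA hairpins with roles in insulin, glucose and lipid metabolism, chosen with earlier results of these data known, 23 were tested and none was called in any comparison. Against wild type, 15 stood higher and 8 lower in Khdc3-null, with a median log2 difference of 0.05 against -0.05 over all features. In descendants against wild type 7 stood higher and 16 lower, with a median of -0.16 against -0.02. Mir143, the most abundant, is raised in livers of obese mice and is also a member of the stroma and vessel list above. It stood at 3031 ± 303 RPM in wild type, 3115 ± 164 RPM in Khdc3-null and 2779 ± 647 RPM in descendants (SD, n = 4 each). Mir26a-1, of a family that raises insulin sensitivity in mouse liver, stood at 1377 ± 129.7, 1440.0 ± 206 and 1019 ± 137 RPM in the same order, and Mir26a-2, of the same mature 5′ arm, at 1301 ± 148, 1350.0 ± 197 and 909 ± 133 RPM. In descendants both lay below every wild type library, at 898 to 1153 against 1270.5 to 1565 RPM for Mir26a-1 and 795 to 1055 against 1205 to 1518 RPM for Mir26a-2. The log2 differences were -0.44 (SE 0.13) and -0.52 (SE 0.13), and these were the 2 of the 23 tested hairpins without overlap, lower, where the share over all features was 1.48%. As the loci share a mature sequence, they are not independent. Mir29b-2 stood at 289 ± 34.0, 255 ± 41.9 and 296 ± 27.4 RPM in the same order.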

How the data were processed

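Small RNA libraries of oocytes were aligned to mm10 with Bowtie2, per the submitters' processing notes. Versions, trimming, strand use and the treatment of reads that fit several loci are not given in the sources used here. Per the labels, RNA was isolated with the PicoPure kit and libraries were made with the NEXTFLEX small RNA kit. The values the authors deposited are RPM (reads per 1000000 mapped reads) with 1 added, as the values show. After 1 was taken off, 100% of values were whole multiples of a step per library within 0.01 reads, which gave reads and depth (2918620 to 7640554 mapped reads). Features were kept that reached 1.61 RPM, which is 10 reads in a library of median depth, in 4 or more libraries, 1889 of 2030. Limma 3.58.1 in R 4.3.3, with a variance trend, was fitted to log2(RPM + 1) of all 12 libraries with 3 group means and Benjamini-Hochberg adjustment, and was tested on simulated data. P-values measure the spread between libraries, which may be technical. Fold changes on the log2(RPM + 1) scale understate those of scarce features. Alternatives were another pseudocount, no filter, other scalings, limma-voom on the recovered reads, and libraries left out. Hairpins and sequences were matched by symbol (918 of 1123 in RefSeq). Hairpins were named as the Pank gene hairpins, the 3 features most like each, and up to 4 of the most abundant members of each list, besides Mir195a and Mir497b. The members, lists and tests were chosen with earlier results of these data known.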

Additional observations from a re-analysis of the deposited data

Results flagged for a closer look

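In groups of 4 libraries, 3 of 21 sets of values had a library set apart by a gap beyond Dixon's 95% critical value. The gap was taken as a part of the range, and chance gives about 1 in 20 for a set. The sets are not independent, since sums and shares are made from the reads of the same hairpins. The count of 3 can therefore not be set against that rate. Descendant replicate 4 was low in Mir103-1, at 144 RPM against 194 to 199 RPM in the others. Wild type replicate 2 was low in the summed Mir103 hairpins, at 324 RPM against 368 to 373 RPM. The same library was low in the sum of the 3 hairpins, at 344 RPM against 396 to 404 RPM. None of these sets is Mir107 alone.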

How the results depend on the processing

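Of 286 values recomputed under another setting, 285 moved by less than the SD between libraries or, for counts of called features, stayed at 0. The exception was the count for Khdc3-null against wild type when a library was left out. It was between 0 and 1, with 1 feature called without Khdc3-null replicate 1 (Mir6384, named after its value was seen). Part of the 286 could not move, as a difference between 2 groups does not change when a library of the other group is left out. Leaving out the filter does not change the log2 differences either. Changes of sign, and a fall of the Mir107 difference to 0.77, lay within that SD and count among the 285. At an unadjusted p under 0.05 limma had 95, 77 and 121 of the 1889 tested features. These are for Khdc3-null against wild type, descendants against wild type and descendants against Khdc3-null, in this order. Limma-voom called 0 in each comparison, with 95, 86 and 122 unadjusted, and with quality weights 0, with 174, 94 and 141. Such counts are not calls, as a share of about 0.05 of the tested features would fall under that limit without any difference. The log2 difference of Mir107 between Khdc3-null and wild type was 1.01 to 1.48 with a library left out and 0.77 to 1.29 in other settings, the lowest being without libraries under 5000000 mapped reads, a setting chosen after seeing the data. For descendants against wild type it was 0.91 to 1.27 and 1.01 to 1.17. Between descendants and Khdc3-null its sign differed in 2 settings of each kind, with values of -0.38 to 0.36. No paired analysis was possible because the labels give no replicate numbers or pairing. The replicate numbers used here follow the order of the samples within each group. Precision is limited by 4 libraries per group and, for Mir107, by 114 to 530 reads per library.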
